A study of Mus musculus with 46 samples.

Results

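Kidney macrophages sorted 14 days after the reversal of a ureteric obstruction were compared with macrophages of sham-operated kidneys, to describe which genes stayed changed once the obstruction had been lifted. The comparison took the 3 rUUO samples, replicates 1, 4 and 6, and the 4 sham samples, replicates 1 to 4, of the F4/80+ macrophage population, 7 of the 46 samples of the series. These 7 were chosen by their labels alone, and no measured value entered the choice. All groups came from WT male C57BL/6 mice aged 8 to 12 weeks. Sham mice had the operation without obstruction, UUO mice had a ureter tied and were culled after 2 or 7 days, and rUUO mice had the ureter reimplanted after obstruction and were culled 14 days later. The labels of the UUO samples do not say which of the 2 days they came from. The 4 UUO macrophage samples entered the fit, and the 3 other sorted populations, PT cells, endothelial cells and stromal cells, served for comparison. Macrophages were sorted on high F4/80, the protein of Adgre1, and in such bulk samples fewer cells of a type and less RNA per cell cannot be told apart. The labels name no animal behind a sample, so the p-values below measure the spread between these samples, which may be technical.

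Each value is an FPKM, the fragments of a gene per transcript length and per sequenced fragment, scaled, as the authors deposited it. The 11 macrophage samples summed to between 706474 and 789276 FPKM, and between 11973 and 13481 genes reached 1 FPKM in them. Transcripts of the mitochondrial genome, ribosomal RNAs included, took between 24.6% and 28.0% of the summed FPKM in sham, whereas the rUUO samples lay between 20.4% and 23.5% and the UUO samples between 22.6% and 37.8%. Pearson's r on log2(FPKM + 1) was 0.9015 to 0.9159 among the sham samples, 0.9136 to 0.9175 among the rUUO samples and 0.8649 to 0.8982 between them. UUO replicate 2 stood apart from the other 10 samples, with r between 0.8395 and 0.8849, and results that rest on it are given with and without it. The depth of the libraries is unknown, since the table holds no counts.

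Macrophages of the kidney take up debris and dying cells, present antigen on MHC class II and signal through chemokines and cytokines. Some descend from embryonic precursors that stay in the tissue and others from blood monocytes that enter after injury. After obstruction their number and makeup shift, and in the repair phase some of them take on a state marked by lipid handling, lysosomal proteases and Trem2, a receptor for lipids and apoptotic debris. Sorted cells can also carry RNA of the tubule cells that surround them or that they have engulfed, so the tubule genes were checked in the same samples.

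The markers of the label were present at high levels in both groups. Adgre1 stood at 186, 186, 247 and 195 FPKM in sham samples 1 to 4 and at 198, 214 and 217 FPKM in rUUO samples 1, 4 and 6, with group ranges that overlapped. Csf1r, the receptor of the growth factor that keeps macrophages alive, stood at 604, 530.1, 691 and 601 FPKM in sham and 417, 425 and 389 FPKM in rUUO. Ptprc, which encodes the leukocyte protein CD45, was measured at 257, 277, 245 and 266 FPKM in sham and 162, 155 and 179.8 FPKM in rUUO. None of the 3 differences passed the test, with adjusted p = 0.924 for Adgre1, 0.0857 for Csf1r and 0.106 for Ptprc, although every rUUO sample lay below every sham sample for the last 2. Mean levels of the 3 genes in PT, endothelial and stromal cells were between 0.761 and 5.79 FPKM.

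At 14 days after reversal, 459 of 13332 genes tested in macrophages differed from sham at an adjusted p under 0.05, or 3.44% of them. The test was limma's moderated test of log2(FPKM + 1), adjusted by Benjamini and Hochberg's method over these 13332 genes, whose average across the 11 macrophage samples was 1 FPKM or more. Among the 459, 252 genes were higher in rUUO (1.89% of those tested) and 207 were lower (1.55%). The median log2 change was -0.03 over all genes tested, 1.59 over the higher genes and -1.48 over the lower ones. The sham and rUUO samples did not overlap for 458 of the 459 genes, against 2403 of all genes tested (18.0%). At the mean of all macrophage samples, 141 of the higher and 106 of the lower genes were above their mean in each of the 3 other populations, as were 5297 of all genes tested (39.7%). With only 3 and 4 samples the count moved with single libraries. It was 276, 238, 350 and 322 without sham replicates 1 to 4 and 219, 204 and 226 without rUUO replicates 1, 4 and 6, and 636 genes passed when UUO replicate 2 was left out of the fit. Of the 98 genes described here by rule that passed, 48 kept the call without each of the 7 libraries in turn.

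The largest rise was that of Il1rn, the secreted antagonist of the interleukin 1 receptor, on chromosome 2 from 24336853 to 24351494 (mm10). It was listed at 7.61, 0.68, 7.94 and 1.29 FPKM in sham samples 1 to 4 and at 101, 87.1 and 73.9 FPKM in rUUO samples 1, 4 and 6. All rUUO samples stood far above the sham samples, by a log2 change of 4.40 ± 0.50 (SE, as for all log2 changes below, adjusted p = 0.000178). The agonist Il1a, an alarm cytokine that acts through the same receptor, was at 0.34, 0.36, 0.05 and 0 FPKM in sham and at 12.1, 7.21 and 9.04 FPKM in rUUO. It rose by a log2 change of 3.12 ± 0.40 (adjusted p = 0.000465), from levels near 0 in sham. Osm, which encodes oncostatin M, a cytokine of the interleukin 6 family, averaged 1.8 ± 1.08 FPKM in sham (SD, n = 4) and rose to 18.2 ± 3.08 FPKM in rUUO (SD, n = 3), with adjusted p = 0.000269, and means of the 2 groups are given in that form below. Ptgs2, the inducible cyclooxygenase that starts prostaglandin synthesis, rose from 1.08 ± 0.832 to 14.7 ± 3.46 FPKM (adjusted p = 0.000246). These 4 genes kept their calls under each of the 19 alternatives run.

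Of the 18 tested genes of the cytokine and inflammasome list, 7 rose and none fell, and the median log2 change of the list was 0.61 against -0.03 for all genes tested. Beside this list and each list below stand the shares over all genes tested, 1.89% higher and 1.55% lower. The 3 other genes that rose were named after their values were seen. They were Il1b, with means of 151 FPKM in sham and 472 FPKM in rUUO, Tnf, with 16.4 and 39.96 FPKM, and Il10, with 0.09 and 4.32 FPKM. The call of Tnf was lost without any 1 of the 7 libraries and that of Il10 without rUUO replicate 4 or 6, and Il1b kept its call under each of the 19 alternatives. Pro-inflammatory cytokines and their brakes, the receptor antagonist Il1rn and the suppressive cytokine Il10, were therefore both among the higher genes. The inflammasome members Nlrp3 (log2 change -0.09, adjusted p = 0.933) and Il18 (-0.04, adjusted p = 0.983) did not pass.

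**Figure D1:**
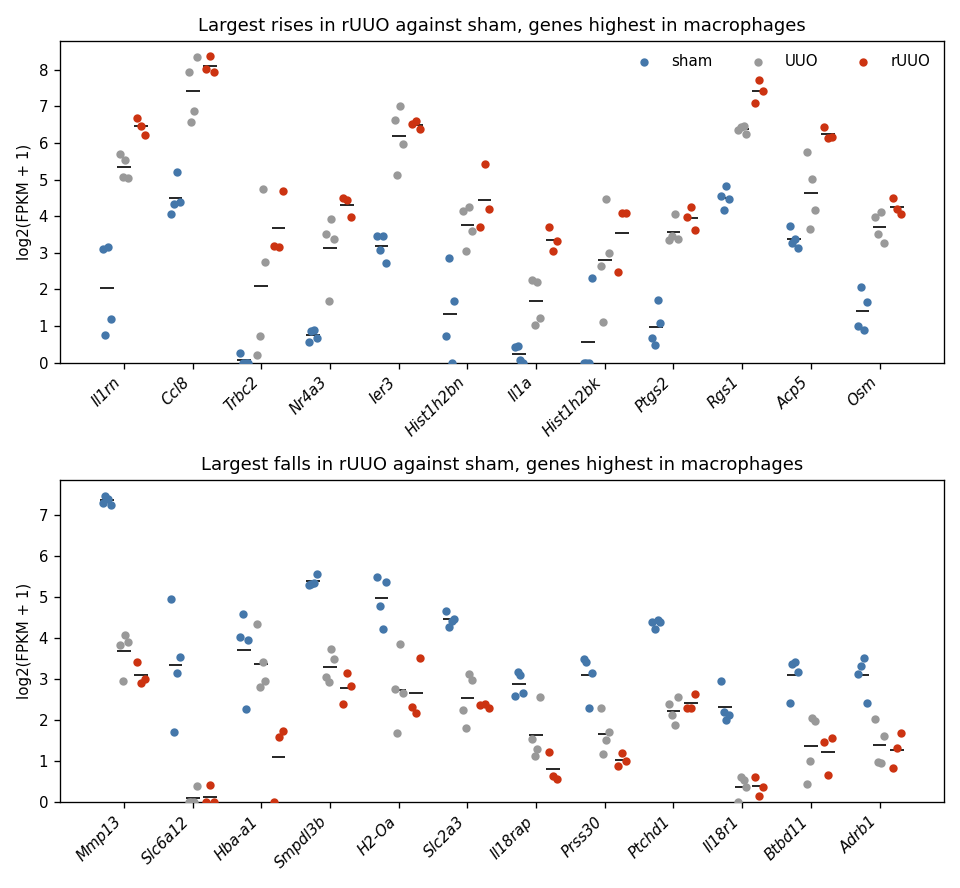
Level of the 12 largest rises (upper panel) and 12 largest falls (lower panel) in rUUO against sham macrophages, among genes whose macrophage mean exceeds that of each other population, as log2(FPKM + 1) on the vertical axis. Points are single samples (4 sham in blue, 4 UUO in grey, 3 rUUO in red) and black lines are group means; in Il1rn the 3 rUUO samples at 73.9 to 101 FPKM sit above sham samples at 0.68 to 7.94 FPKM, and in Mmp13 the order is the opposite.

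The promoters of Il1rn, the gene that rose most, Mmp13, the gene that fell most, and Il1a hold the letters of the AP-1 motif, the site bound by dimers of Fos and Jun proteins. They are 3 of the 5 genes with a match among the macrophage-enriched genes described. The other 2, Btbd11 and Slc6a12, both fell and are not shown. Whether Fos and Jun proteins act on any of these genes was not tested. The windows run from 250 bases before to 50 bases after a RefSeq start site on the gene's own strand (RefSeq, GRCm38.p6), 5′ to 3′, and capitals mark a match to TGANTCA on either strand.
Il1rn, chr2:24336610-24336909, plus strand, the first of 3 starts: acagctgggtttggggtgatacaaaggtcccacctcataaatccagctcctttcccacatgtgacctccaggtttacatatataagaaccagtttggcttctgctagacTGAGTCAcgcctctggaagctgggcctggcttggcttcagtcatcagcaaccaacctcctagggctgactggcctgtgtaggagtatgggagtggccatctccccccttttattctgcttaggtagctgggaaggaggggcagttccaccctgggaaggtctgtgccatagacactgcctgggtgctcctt
Il1a, chr2:129309923-129310222, minus strand: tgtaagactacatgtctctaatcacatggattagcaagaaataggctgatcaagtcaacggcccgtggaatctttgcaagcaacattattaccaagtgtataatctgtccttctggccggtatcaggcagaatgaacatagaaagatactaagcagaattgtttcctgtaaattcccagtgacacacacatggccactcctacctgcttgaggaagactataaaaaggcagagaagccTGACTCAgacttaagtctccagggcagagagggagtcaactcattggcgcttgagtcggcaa
Mmp13, chr9:7272264-7272563, plus strand: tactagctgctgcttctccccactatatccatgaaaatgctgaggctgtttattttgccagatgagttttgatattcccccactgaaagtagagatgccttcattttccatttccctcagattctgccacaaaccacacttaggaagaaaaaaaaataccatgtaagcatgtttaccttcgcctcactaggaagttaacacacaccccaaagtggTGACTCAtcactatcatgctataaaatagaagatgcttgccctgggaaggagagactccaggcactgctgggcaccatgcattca
The match began 141 bases before the first start in Il1rn, 12 bases before the start in Il1a and 35 bases before that in Mmp13. Starts 2 and 3 of Il1rn held no match, and which start these cells used was not measured. Only the 24 macrophage-enriched genes in the plot of largest rises and falls were searched, so Il1b was not among them. Of these, 18 had a promoter in the table, and the motif was found at 1 or more starts in 2 of 7 rising genes and 3 of 11 falling genes. It was found in 2425 of 27025 genes with a promoter (8.97%). The cyclic AMP response element, TGACGTCA, was found in none of the 18 and in 2.03% of all genes, and the lysosomal CLEAR element, TCACGTGA, in none and in 1.125%. The NF-kB motif was found in Il1rn and Slc6a12 and in 1.895% of all genes, and the PU.1 letters GAGGAAGT in Il18rap and in 3.69%, all motifs being searched on both strands. A match is only a match of letters, and nothing here measured binding.

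The chemokine genes that passed all rose. Of 28 tested genes of the list, 11 rose and none fell, beside 1.89% and 1.55% of all genes tested. The median log2 change of the list was 0.87. Ccl8, a ligand that draws monocytes and T cells, stood at 15.8, 19.1, 35.8 and 19.7 FPKM in sham and 256, 331 and 243 FPKM in rUUO (log2 change 3.61 ± 0.38, adjusted p = 0.000106). The groups were far apart, and Ccl8 reached the highest mean of the genes of the list that rose. Ccl7, a ligand of the monocyte receptor CCR2, rose from 5.96 ± 3.1 to 41.7 ± 15.8 FPKM (adjusted p = 0.00197), although sham replicate 2 at 1.44 FPKM lay below the other sham samples. Ccrl2, a receptor that binds chemerin without signalling, rose from 9.85 ± 2.81 to 70.4 ± 14.2 FPKM (adjusted p = 0.000253). Ccl17, a ligand of CCR4, rose from 2.31 ± 2.37 to 16.3 ± 5.99 FPKM (adjusted p = 0.0132), but not without rUUO replicates 1 or 6. The receptor Ccr2 itself, a marker of monocyte-derived cells, stood at 50.2, 81.4, 87.7 and 79.3 FPKM in sham and 129, 118 and 142 FPKM in rUUO (log2 change 0.81 ± 0.20, adjusted p = 0.0385). That call was lost without any one of sham replicates 1, 2 and 4 and each rUUO replicate. In the same samples the interferon-induced chemokines Cxcl9 (log2 change -0.18, adjusted p = 0.751) and Cxcl10 (0.31, adjusted p = 0.619) did not pass. The count of 11 was 7 without sham replicate 1, 6 without rUUO replicate 1 or 4, and 7 without rUUO replicate 6.

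Immediate early genes, which cells switch on within minutes of a stimulus, formed the list with the most rises. Of 27 tested, 14 rose, none fell, and the samples did not overlap for 20. Over all genes tested, 1.89% rose, 1.55% fell and 18.0% did not overlap. The median log2 change of the list was 1.38. Ier3, a stress-induced survival gene, stood at 10.1, 7.43, 10.04 and 5.57 FPKM in sham and 90.6, 95.5 and 82.5 FPKM in rUUO (log2 change 3.32 ± 0.36, adjusted p = 0.000142). Fos was at 43.9, 57.3, 54.2 and 52.6 FPKM in sham and 232, 262 and 225 FPKM in rUUO (log2 change 2.19 ± 0.18, adjusted p = 2.57e-05), and its relative Fosb at 25.7, 20.9, 31.7 and 13.6 and 112, 108 and 94.8 FPKM (2.20 ± 0.26, adjusted p = 0.000253). In all 3 genes each rUUO sample exceeded each sham sample. Junb, a partner of Fos proteins, rose by 2.08 ± 0.37 (adjusted p = 0.0066), but not without rUUO replicate 4, and without that replicate 8 of the 27 genes passed.

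The same list had positive medians after reversal in the other sorted populations. Its median log2 change was 1.75 in PT cells, 1.22 in endothelial cells and 1.38 in stromal cells, on the log2(FPKM + 1) scale. The macrophage change minus the mean change of the other 3 populations was -0.34 for Fos (adjusted p = 0.591), 0.32 for Junb (adjusted p = 0.67) and 1.06 for Ier3 (adjusted p = 0.0688). Of the 27 genes, 1 passed that test of the difference, against 704 of all 13332 genes (5.28%). Cells of every population were dissociated and sorted, and the part of that handling in these values was not tested.

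Transcription factor genes of the macrophage list rose in 8 and fell in 1 of 31 tested cases, beside 1.89% and 1.55% of all genes tested. The median log2 change of the list was 0.41. Bhlhe40, a repressor that sustains macrophage proliferation and cytokine output, was at 2.49, 3.07, 1.58 and 0.74 FPKM in sham and 21.4, 15.8 and 22.6 FPKM in rUUO (log2 change 2.87 ± 0.36, adjusted p = 0.000388). Id2, an inhibitor of helix-loop-helix factors, rose from 6.45 ± 1.38 to 32.1 ± 5.46 FPKM (adjusted p = 0.000864), and the nuclear receptor gene Nr4a1, which is also an immediate early gene, from 7.19 ± 0.777 to 28.8 ± 3.79 FPKM (adjusted p = 0.000353). Its relative Nr4a3 stood at 0.48, 0.82, 0.84 and 0.59 FPKM in sham and 21.4, 20.8 and 14.7 FPKM in rUUO (log2 change 3.56 ± 0.44, adjusted p = 0.000388). Nfil3, a basic leucine zipper factor, rose by 3.67 ± 0.32 (adjusted p = 2.57e-05) from sham levels of 0.77, 0.15, 0.25 and 0.41 FPKM. Id3 rose by 1.91 ± 0.41 (adjusted p = 0.0193), a call that was lost without any one of sham replicates 2, 3 and 4 and each rUUO replicate. Runx1, named after its value was seen, was the factor that fell, from a mean of 143 to 68.9 FPKM (adjusted p = 0.00556). Spi1, which encodes the lineage factor PU.1, had means of 191 and 183 FPKM (log2 change -0.06, adjusted p = 0.932). The count of 9 was 6 without sham replicate 2 or 4 or rUUO replicate 1 or 4, and 5 without rUUO replicate 6.

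**Figure D2:**
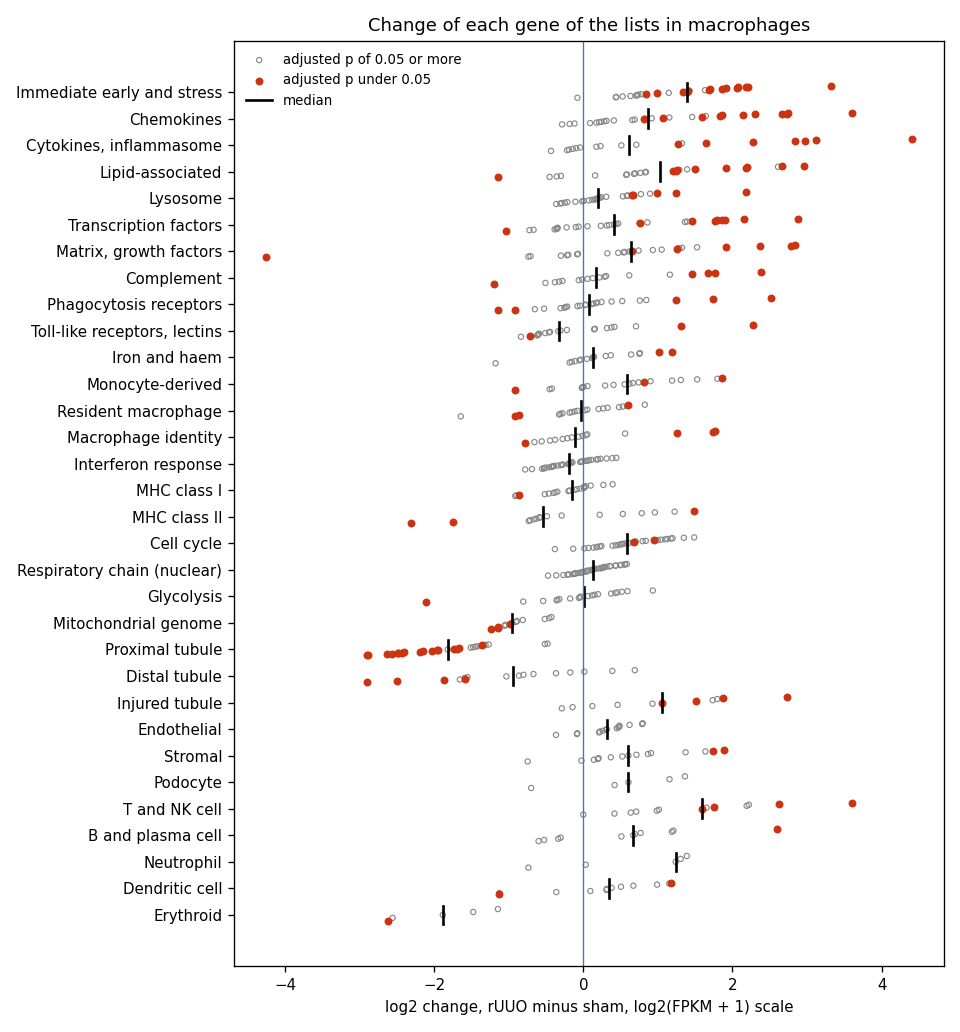
Change of every tested gene of the 32 lists in macrophages, as rUUO minus sham on the log2(FPKM + 1) scale (horizontal axis), with 1 line of points per list. Filled red points are genes with adjusted p under 0.05 (limma), open points are the others and black bars are list medians; the proximal tubule list lies wholly below 0 with a median of -1.82, and the immediate early list has a median of 1.38.

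Genes of the lipid-associated macrophage state mostly rose where they passed. Of 24 tested, 9 rose and 1 fell, beside 1.89% and 1.55% of all genes tested, and the median log2 change of the list was 1.02. It was 0.90 in stromal cells, 0.13 in PT cells and 0.23 in endothelial cells. Of the 24 genes, 6 passed the test of the difference, against 5.28% of all genes tested. Trem2 stood at 12.5, 9.94, 16.8 and 11.2 FPKM in sham and 53.03, 71.96 and 57.5 FPKM in rUUO, with no overlap (log2 change 2.19 ± 0.24, adjusted p = 0.000167). Fabp5, a fatty acid carrier, was at 1.87, 3.87, 2.93 and 1.19 FPKM in sham and 24.8, 18.2 and 17.7 FPKM in rUUO (log2 change 2.67 ± 0.35, adjusted p = 0.000503). Gpnmb, a membrane glycoprotein of lysosome-rich macrophages, rose by 2.96 ± 0.65 (adjusted p = 0.0234), but the call was lost without any one of sham replicates 2 and 4 and each rUUO replicate. The gene that fell was Cd36, a scavenger receptor that takes up fatty acids, at 166, 154, 216 and 242 FPKM in sham and 83.6, 85.2 and 88.5 FPKM in rUUO (log2 change -1.15 ± 0.20, adjusted p = 0.00596). The lipid list was thus not uniform. The summed FPKM of its genes was 1710.2, 1969.8, 2196 and 2077 in the sham samples and 3664, 3314 and 3169.8 in the rUUO samples. Acp5, the tartrate-resistant acid phosphatase, lies outside the list and rose from 9.51 ± 1.96 to 74.9 ± 8.96 FPKM (adjusted p = 0.000634).

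Among 27 lysosomal genes tested, 5 rose and none fell, beside 1.89% and 1.55% of all genes tested. The median log2 change of the list was 0.20, below that of 0.88 in stromal cells, while PT cells had -0.09 and endothelial cells 0.01. Of the 27 genes, 4 passed the test of the difference, against 5.28% of all genes tested. The protease gene Ctsd, which encodes cathepsin D, stood at 118, 116, 158 and 109.5 FPKM in sham and 557, 582 and 553 FPKM in rUUO, the clearest of these changes (log2 change 2.18 ± 0.21, adjusted p = 6.96e-05). Ctsl, another cathepsin gene, rose from 63.5 ± 5.77 to 151 ± 15.3 FPKM (adjusted p = 0.00971), but not without rUUO replicate 1. Npc1, which exports cholesterol from the lysosome, rose from 39.4 ± 4.45 to 78.4 ± 0.766 FPKM (adjusted p = 0.0103), but not without rUUO replicate 4. It stood at 44.9, 30.1, 37.5 and 42.7 FPKM in UUO samples 1 to 4, which overlapped the sham range. Grn, which encodes progranulin and was named after its value was seen, rose from a mean of 403 to 637 FPKM (adjusted p = 0.0371), and lost the call without any 1 of the 7 libraries. Lamp1, a membrane protein of the lysosome, rose by 0.67 ± 0.16 (adjusted p = 0.0373), a call that did not survive leaving out any 1 of the 7 libraries. The lysosomal hydrolase gene Man2b1 (log2 change -0.36, adjusted p = 0.335) did not pass. The lysosome count was 3 without any one sham replicate or rUUO replicate 6, and 2 without rUUO replicate 1 or 4.

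Mmp13, which encodes the collagenase MMP13, fell more than any other gene. On chromosome 9 from 7272514 to 7283331 (mm10), it was at 158, 178, 169 and 153 FPKM in sham and 9.81, 6.5 and 7.01 FPKM in rUUO, and in UUO at 13.3, 6.74, 15.9 and 14.04 FPKM. The lowest sham sample was at 153 FPKM and the highest of the other 7 samples at 15.9 FPKM, with a log2 change of -4.25 ± 0.26 from sham to rUUO (adjusted p = 2.14e-06). Its mean was 0.184 FPKM in PT, 0.255 FPKM in endothelial and 1.31 FPKM in stromal cells. Of the 26 tested genes of the matrix and growth factor list, Mmp13 alone fell and 6 rose. Mmp14, a membrane-bound activator of other matrix proteases, was at 5.3, 6.63, 6.64 and 7.88 FPKM in sham and 68.6, 51.8 and 42.2 FPKM in rUUO (log2 change 2.84 ± 0.24, adjusted p = 2.57e-05). Adam8, a metalloprotease of myeloid cells, rose from 0.537 ± 0.201 to 9.77 ± 2.76 FPKM (adjusted p = 0.000482). Spp1, which encodes osteopontin, Igf1, a growth factor, and Grn rose too (adjusted p = 0.00195, 0.0025 and 0.0371) and were named after their values were seen. Plaur, the urokinase receptor, rose by 2.37 ± 0.60 (adjusted p = 0.0441), but not without any one of sham replicates 1, 2 and 4 or a rUUO replicate. Tgfb1, the central fibrosis cytokine, had means of 85.8 and 74.5 FPKM (log2 change -0.22, adjusted p = 0.623).

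The other macrophage-enriched genes that fell most were of varied function. Smpdl3b, a membrane phosphodiesterase that dampens Toll-like receptor signalling, was at 38.4, 39.2, 39.6 and 46.8 FPKM in sham and 4.24, 7.96 and 6.14 FPKM in rUUO (log2 change -2.59 ± 0.26, adjusted p = 9.7e-05). Slc2a3, which encodes the glucose transporter GLUT3, was at 24.4, 18.4, 20.6 and 21.2 FPKM in sham and 4.19, 4.26 and 3.95 FPKM in rUUO (-2.10 ± 0.32, adjusted p = 0.00183), the single gene of 20 tested glycolysis genes to pass. Ptchd1, a patched-domain membrane protein, fell from 19.7 ± 1.29 to 4.38 ± 0.762 FPKM (adjusted p = 0.000639). In each of these 3 genes the groups were well apart. Slc6a12, a betaine and GABA transporter, had a log2 change of -3.21 ± 0.58 (adjusted p = 0.0068) but varied in sham between 2.28 and 30.4 FPKM. Both chains of the interleukin 18 receptor were lower, Il18r1 at 6.8, 3.61, 3.05 and 3.37 FPKM in sham and 0.54, 0.12 and 0.3 FPKM in rUUO, and Il18rap at 5.01, 8.06, 7.67 and 5.37 and 1.36, 0.57 and 0.49 FPKM. The call of Il18r1 (adjusted p = 0.0109) was lost without rUUO replicate 4, and that of Il18rap (adjusted p = 0.0102) without rUUO replicate 4 or 6. Prss30, a serine protease gene, fell from 7.96 ± 2.86 to 1.07 ± 0.234 FPKM (adjusted p = 0.00848). Btbd11 and Adrb1, the latter the beta-1 adrenergic receptor, passed at adjusted p = 0.0384 and 0.0207 but lost the call without any one of 6 and 5 of the 7 libraries, sham replicate 1 excepted for Btbd11 and sham replicate 4 and rUUO replicate 6 for Adrb1.

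Hs3st1, a heparan sulfate sulfotransferase, was not highest in macrophages over all samples but had the next largest fall after Mmp13. It was at 22.5, 27.6, 18.8 and 33.3 FPKM in sham, 3.28, 0.49, 5.62 and 1.23 FPKM in UUO and 1.62, 0.15 and 0.44 FPKM in rUUO (log2 change -3.99 ± 0.48, adjusted p = 0.000269), while its mean over the endothelial samples was 24.5 FPKM. Adgrl3, an adhesion receptor, fell with a log2 change of -3.10 ± 0.46 (adjusted p = 0.00152), and its mean was 27.8 FPKM in stromal cells. The estimated amount of PT RNA was under 1% of the sham level of both genes.

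The summed level of MHC class II genes was lower after reversal. The genes of the list summed to 56522, 57986, 59486 and 70721 FPKM in sham samples 1 to 4 and to 38003, 43794 and 38570 FPKM in rUUO samples 1, 4 and 6, without overlap. Single genes passed the test less readily. Of 16 tested, 2 fell and 1 rose, with a median log2 change of -0.54. The groups did not overlap for 14, lower in 9 and higher in 5, against 18.0% of all genes tested. The 2 that fell were H2-Oa, at 43.9, 26.9, 17.9 and 40.7 FPKM in sham and 3.99, 3.55 and 10.4 FPKM in rUUO (log2 change -2.30 ± 0.48, adjusted p = 0.0157), and H2-Ob, at 16.1, 18.3, 17 and 26.6 and 2.79, 9.68 and 4.34 FPKM (-1.75 ± 0.42, adjusted p = 0.0384). Their products form H2-O, which restrains peptide loading onto class II molecules. The abundant chains Cd74 (log2 change -0.67, adjusted p = 0.0781), H2-Ab1 (-0.73, adjusted p = 0.0679) and H2-Aa (-0.58, adjusted p = 0.255) did not pass. Ifi30, a thiol reductase that unfolds antigens in the lysosome, was at 78.7, 76.8, 106 and 109 FPKM in sham and 251, 277 and 247 FPKM in rUUO and rose by 1.49 ± 0.18 (adjusted p = 0.000254). The counts depended on the libraries in the fit. Without UUO replicate 2, 8 genes passed as lower and 3 as higher, whereas without sham replicate 1 or 4 or rUUO replicate 1 no gene passed as lower, and in the fit of the 7 sham and rUUO samples alone 6 did.

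**Figure D3:**
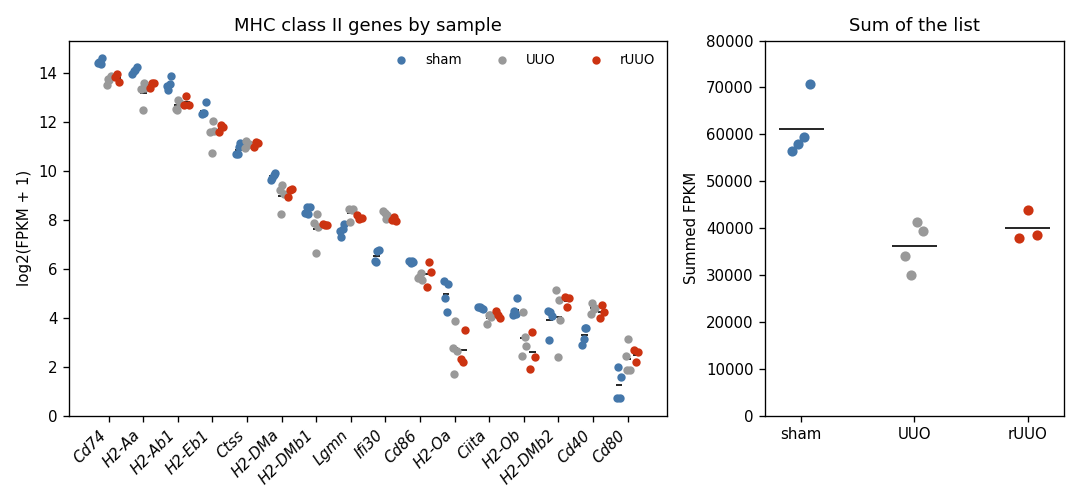
Left, level of the 16 tested MHC class II genes in each macrophage sample as log2(FPKM + 1), ordered by sham mean; right, summed FPKM of the list. Points are samples (sham blue, UUO grey, rUUO red) and black lines are group means; the rUUO sums of 38003 to 43794 FPKM lie below the lowest sham sum of 56522 FPKM.

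MHC class I and interferon-response genes gave 1 call in 20 and 0 in 34 genes, beside 3.44% of all genes tested. Among the class I genes H2-T23, a non-classical class I gene, fell from 299 ± 30.3 to 166 ± 28.4 FPKM (adjusted p = 0.0187), but not without sham replicate 1 or 4 or rUUO replicate 1 or 6, and the other 19 did not pass. Of the interferon-response genes 0 passed in limma and 4 had an unadjusted p under 0.05, with a median log2 change of -0.19. Ifitm3, an interferon-induced membrane protein, stood at 1047, 866, 964 and 989.6 FPKM in sham and 865, 1079 and 882 FPKM in rUUO (adjusted p = 0.954). The 40 nuclear respiratory chain genes also gave 0 calls and 0 unadjusted p under 0.05, with a median of 0.13 (0.07 without sham replicate 1 and 0.22 without sham replicate 4). Of 32 cell cycle genes 2 passed, Pcna (adjusted p = 0.0432) and Cenpa (adjusted p = 0.0479), both higher and both lost when any 1 of the 7 libraries was left out. Beyond those calls, 30 of the 32 had a positive log2 change and the median was 0.59. The cell cycle list summed to 311, 277, 290.2 and 306 FPKM in sham and to 411, 437 and 505 FPKM in rUUO, without overlap. Outside that list, the histone genes Hist1h2bn and Hist1h2bk were among the 12 largest rises of macrophage-enriched genes, from 2.27 ± 2.79 to 23.8 ± 16.1 FPKM (adjusted p = 0.00897, lost without rUUO replicate 4) and from 0.988 ± 1.98 to 12.2 ± 6.59 FPKM (adjusted p = 0.043, lost without any 1 library but sham replicate 4). Copies of these histone genes are near-identical, so reads may be split between them.

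General macrophage genes were split. Itgam, which encodes the integrin chain CD11b, stood at 78.6, 72.7, 91.7 and 61.97 FPKM in sham and 304, 262 and 217 FPKM in rUUO (log2 change 1.76 ± 0.23, adjusted p = 0.000488). Mertk, a receptor for apoptotic cells, rose from 5.36 ± 0.676 to 20.1 ± 1.66 FPKM (adjusted p = 0.000598). Lyz2, the lysozyme of myeloid cells, rose from 5074 ± 1449 to 11853 ± 1103 FPKM (adjusted p = 0.00721), but not without rUUO replicate 4. Of the 16 identity genes tested these 3 rose, and Laptm5 fell with a log2 change of -0.78 ± 0.20 (adjusted p = 0.046), a call that did not survive the loss of any 1 library.

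Of 20 genes of resident macrophages 1 rose and 2 fell, beside 1.89% and 1.55% of all genes tested. The median log2 change of the list was -0.03. That median was -0.09 without sham replicate 2, 0.10 without sham replicate 3 and 0.07 without rUUO replicate 4. Cd81, a tetraspanin, was at 1054, 1228, 1054 and 1034 FPKM in sham and 610.4, 557 and 634 FPKM in rUUO (log2 change -0.86 ± 0.18, adjusted p = 0.014), and lost the call without sham replicate 2 or any one rUUO replicate. Hpgd, which inactivates prostaglandins, fell from 258 ± 47.5 to 135 ± 14.3 FPKM (adjusted p = 0.0367) and the mannose receptor gene Mrc1 rose from 158 ± 19.1 to 240.1 ± 6.04 FPKM (adjusted p = 0.0436). Each of these 2 calls was lost without any one of 6 of the 7 libraries, all except sham replicate 1 for Hpgd and sham replicate 3 for Mrc1. The complement chain C1qa, abundant in resident macrophages, had means of 1469 and 1517 FPKM (log2 change 0.06, adjusted p = 0.983). The 20 genes of the monocyte-derived list had a median of 0.59, or 0.21 without rUUO replicate 1, with Nr4a1 and Ccr2 higher, Fcgr4 lower (adjusted p = 0.0376, lost without any 1 library but rUUO replicate 4), and Ly6c2 at means of 0.625 and 3.45 FPKM (adjusted p = 0.279).

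Receptors and soluble defence genes included further changes in both directions. Cd300lf, an inhibitory receptor that binds lipids, rose from 1.03 ± 0.721 to 10.6 ± 3.47 FPKM (adjusted p = 0.00129), and the scavenger receptor Msr1 from 56.03 ± 6.43 to 135 ± 26.5 FPKM (adjusted p = 0.00367). With Mertk these were 3 of 24 phagocytosis receptors that rose, while Cd36 and Fcgr4 fell. Clec4n, which encodes the fungal receptor dectin-2, was at 7.12, 6.19, 9.48 and 7.87 FPKM in sham and 45.9, 39.9 and 36.2 FPKM in rUUO (log2 change 2.27 ± 0.23, adjusted p = 9.7e-05). Among Toll-like receptors Tlr8 rose (adjusted p = 0.0155) and Tlr9 fell (adjusted p = 0.0422), the former lost without sham replicate 2 or rUUO replicate 1 and the latter without any 1 library. The complement genes C4b and Cfp, which encodes properdin, rose by 2.39 ± 0.42 (adjusted p = 0.00628) and 1.45 ± 0.25 (adjusted p = 0.00596). Of 18 complement genes those 2, C3 and the complement receptor chain Itgam rose and C2 fell, C2 being named after its value was seen (adjusted p = 0.0432, lost without any 1 library), and the call of C3 (adjusted p = 0.0376) was lost without any 1 library but sham replicate 3. The haem oxygenase gene Hmox1 and the ferritin heavy chain gene Fth1 were the 2 of 17 iron and haem genes that rose, Fth1 from 3698 ± 592 to 7392 ± 512 FPKM (adjusted p = 0.00829, lost without rUUO replicate 4) and Hmox1 at adjusted p = 0.043, lost without any 1 library but rUUO replicate 4.

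Tubule genes were lower in the rUUO macrophages. Of 27 proximal tubule genes tested, all had a negative log2 change, 17 fell at adjusted p under 0.05 and the groups did not overlap for 23, with a median log2 change of -1.82. Over all genes tested, 1.55% fell and 18.0% did not overlap. The list was lower after reversal in the other populations as well, by a median log2 change of -0.76 in PT, -0.78 in endothelial and -1.07 in stromal cells. Of the 27 genes, 5 passed the test of the difference, against 5.28% of all genes tested. Slc34a1, the phosphate transporter of the proximal tubule, was at 70.6, 65.2, 55.9 and 62.9 FPKM in sham macrophages and 7.87, 12.4 and 9.86 FPKM in rUUO macrophages, against a mean of 813 FPKM over the PT samples. Kap, an androgen-regulated tubule gene, was at 128, 109, 125 and 216 FPKM in sham and 19.5, 18.7 and 15.4 FPKM in rUUO. Akr1c21 and Keg1, enzymes of the same cells, had means of 23.6 and 26.4 FPKM in sham and 2.41 and 3.5 FPKM in rUUO. The adjusted p of these 4 genes lay between 6.96e-05 and 0.000175. The list summed to 1570.5, 1234, 1040.3 and 1433 FPKM in the sham samples and 284, 273 and 264 FPKM in the rUUO samples, an exact permutation p of 0.0286, two-sided, the smallest that 35 regroupings allow. Over the 11 other-cell lists the adjusted p was 0.0629, and no list could reach 0.05 unless at least 7 lists shared that smallest p.

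To set a scale, each of 29 proximal tubule genes was divided by its mean in PT cells of the same surgery, and the median of the ratios was taken in each sample. Macrophage samples held 5.38%, 4.48%, 4.06% and 5.31% of the PT level in sham and 1.74%, 1.40% and 1.22% in rUUO, with the UUO samples between 2.40% and 3.03%. All 4 sham samples were thus above all 7 others. With that share of the PT level of every gene, the estimated carried RNA made up more than 50% of the fall in 54 of the 207 lower genes. Those 54 included the 17 genes of the tubule list that fell. The 106 falling genes that were highest in macrophages could not be among them, because a small percentage of a PT level that lies below the macrophage level is small by definition. Gsta2, a glutathione transferase, and Spink1, a trypsin inhibitor, are among the 6 largest falls of genes with standard symbols and were far higher in PT cells, with means of 345 and 634 FPKM in PT cells. Gsta2 was at 61.7, 19.1, 18.3 and 36.99 FPKM in sham and 3.4, 1.96 and 2.07 FPKM in rUUO macrophages, and the estimate came to 77.7% of its sham level and 72.4% of its fall. For Spink1 the corresponding values were 84.5% and 69.0%.

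When the estimated PT amount was taken off each macrophage sample and the fit repeated, 347 genes passed, 227 higher and 120 lower. None of the 54 genes passed in limma, 5 of them at an unadjusted p under 0.05, while 120 of the other 153 lower genes did. The same estimate that was taken off had divided the genes into the 54 and the 153. Both counts therefore follow largely from that choice and are no independent support. Several of the 54 kept a large negative log2 change all the same, and a lost call does not show where the RNA came from. Values that the subtraction took below 0 were set to 0. In rUUO the estimate exceeded the measured mean in Kap (21.2 against 17.9 FPKM), Spink1 (10.07 against 4.41 FPKM) and Gsta2 (3.60 against 2.48 FPKM). The changes that these 3 genes kept therefore depend on that floor and are not read as a fall beyond carried RNA. The change went from -2.90 to -2.78 in Kap, from -3.10 to -2.22 in Spink1 and from -3.18 to -2.05 in Gsta2. Over the 54 the median went from -1.87 to -0.52. The tubule list itself then gave 0 calls and a median of -0.30, a result that the construction fixes because its genes set the estimate. Mmp13, Smpdl3b, Slc2a3 and Ptchd1 kept their calls after the subtraction. Their mean levels in PT cells were between 0.184 and 0.276 FPKM, so the subtraction took almost nothing from them and could not test those calls. Distal tubule genes fell in 4 of 16 tested cases, Fxyd2, a subunit of the sodium pump, from 189.5 ± 36.1 to 24.5 ± 5.51 FPKM (adjusted p = 0.000106) among them. Slc12a3, the thiazide-sensitive transporter, Egf, the growth factor of the distal nephron, and Cldn10, a tight junction protein, were the other 3 (adjusted p = 0.0187, 0.0157 and 0.0432), and lost their calls without any one of 5, 2 and 6 of the 7 libraries. These losses came without sham replicates 2, 3 and 4 and rUUO replicates 1 and 6 for Slc12a3, without sham replicate 2 and rUUO replicate 1 for Egf, and without all but rUUO replicate 1 for Cldn10. The list summed to 258, 374, 299 and 349 FPKM in sham and 127, 84.2 and 112 FPKM in rUUO. Its median log2 change was -0.95 in macrophages, 0.58 in PT, -1.30 in endothelial and -2.57 in stromal cells. Its genes were not absent from PT cells, where Fxyd2 had a mean of 852 FPKM and Cldn10 one of 25.8 FPKM. The estimated PT RNA came to 26.1% of the sham macrophage level in Fxyd2 and 40.1% in Cldn10. It came to 2.91% in Slc12a3 and 2.54% in Egf. Whether tubule RNA in these samples was carried or made by the macrophages was not tested.

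**Figure D4:**
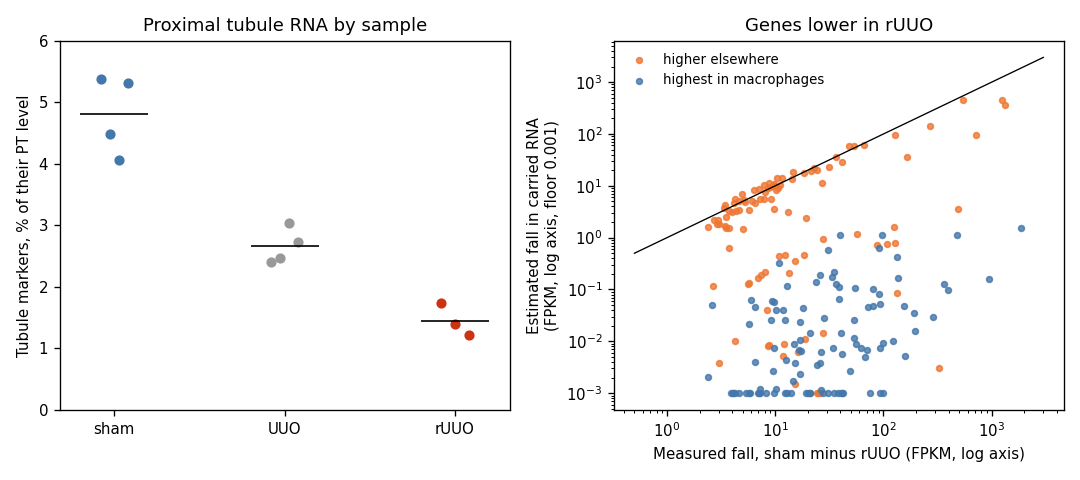
Left, median level of 29 proximal tubule genes in each macrophage sample as a percentage of their level in PT cells of the same surgery (4 sham, 4 UUO, 3 rUUO points, black lines are means), from 1.22% to 5.38%. Right, for the 207 genes lower in rUUO, the measured fall (FPKM, log axis) against the fall in carried PT RNA estimated from that percentage (FPKM, log axis, values under 0.001 drawn at 0.001), with the line of equality. Genes highest in macrophages (blue) lie below the line by the way they were chosen, and orange points are the other genes.

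Transcripts of the mitochondrial genome were also lower. All 13 tested genes had a negative log2 change, 4 passed, and the median was -0.96. The 13 genes summed to 27998, 25615, 28185 and 30827 FPKM in sham and 16089, 16163 and 16973 FPKM in rUUO. mt-Co3, a subunit of cytochrome c oxidase, was at 999, 1117, 1499.5 and 1609 FPKM in sham and 499, 555 and 705 FPKM in rUUO (log2 change -1.14 ± 0.24, adjusted p = 0.0174), a call lost without sham replicate 3 or 4 or rUUO replicate 1 or 4. The estimated carried PT RNA was 12.3% of its sham level and 13.3% of its fall, and for mt-Nd2, a subunit of complex I, 36.98% and 51.6%. After the PT amount was taken off, 1 of the 13 genes passed, and the median log2 change was -0.78. The change of mt-Nd4 then went from -1.14 to -0.92 and that of mt-Co2 from -0.98 to -0.84. The remaining 2 calls before the subtraction were mt-Nd4 and mt-Co2 (adjusted p = 0.0415 and 0.0136). The call of mt-Co2 was lost without any one rUUO replicate, and those of mt-Nd2 and mt-Nd4 without any 1 of the 7 libraries. Without each sham or rUUO library in turn between 0 and 2 of the 13 genes passed, and 9 did without UUO replicate 2. The mitochondrial list was lower after reversal in the other populations as well, by a median log2 change of -0.28 in PT, -0.93 in endothelial and -1.23 in stromal cells, and none of the 13 genes passed the test of the difference in limma, with 0 at an unadjusted p under 0.05.

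Some genes of other cell types rose in the rUUO macrophages. The T and NK cell list summed to 26.6, 15.4, 14.9 and 40.5 FPKM in sham and 75.8, 77.2 and 157 FPKM in rUUO. Trbc2, a constant segment of the T cell receptor beta chain, was listed at 0.21, 0, 0 and 0 FPKM in sham and 8.04, 7.87 and 24.9 FPKM in rUUO, and Cd3e, of the same receptor, at 0.72, 0, 0.07 and 0.05 and 5, 3 and 15.1 FPKM. Of 13 genes 4 rose, those 2 (adjusted p = 0.0286 and 0.0491), Il7r (0.0432) and Ccl5 (0.0432). Each of the first 3 calls was lost without any 1 of the 7 libraries, and that of Ccl5 without any but sham replicate 4. Gzma, a granzyme of cytotoxic cells, was at 0 in all 7 samples. The immunoglobulin gene Igkc rose from 18.4 ± 9.89 to 109 ± 22.8 FPKM (adjusted p = 0.00721), and the other 10 tested genes of the B and plasma cell list did not pass. The list summed to 409.9, 480.5, 471 and 532 FPKM in sham and 478, 492 and 444 FPKM in rUUO.

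Stromal genes Mgp and Bgn rose, Mgp from 52.9, 34.9, 47.1 and 29.7 FPKM in the sham samples to 211, 119 and 136 FPKM in the rUUO samples (adjusted p = 0.000465), against a mean of 4957 FPKM in stromal cells. The stromal list summed to 158, 133, 177 and 83.2 FPKM in sham and 421, 247 and 267 FPKM in rUUO. The call of Bgn (adjusted p = 0.0285) was lost without any one of sham replicates 2 and 4 and each rUUO replicate. Of 11 injured tubule genes 4 rose, Lcn2, the keratin gene Krt19, Clu, which encodes clusterin, and the adhesion molecule gene Vcam1 (adjusted p between 0.0132 and 0.0479). The call of Vcam1 was lost without any 1 of the 7 libraries, that of Clu without any but sham replicate 2, and that of Krt19 without any but sham replicate 1 and rUUO replicate 6. Lcn2, an iron-binding protein of injured tubules that macrophages also make, was at 1.99, 0.53, 2.59 and 0.19 FPKM in sham and 39.6, 7.04 and 7.34 FPKM in rUUO (adjusted p = 0.0132, lost without sham replicate 2 or rUUO replicate 1). That list had sums of 43.5, 69.7, 44.2 and 45.98 FPKM in sham and 183, 108 and 120.2 FPKM in rUUO. None of 15 endothelial, 5 podocyte or 5 neutrophil genes tested passed in limma, with 0, 1 and 1 at an unadjusted p under 0.05, and the neutrophil markers Ly6g and Elane were at 0 in all 7 samples. The neutrophil list nonetheless summed to 81.5, 36.2, 58.3 and 28.6 FPKM in sham and to 132, 101 and 133 FPKM in rUUO, without overlap (exact permutation p = 0.0571, two-sided, adjusted p = 0.0898 over 11 lists). Of its 5 tested genes 4 had a positive log2 change, with a median of 1.24. Of 12 dendritic cell genes Cd24a rose and Clec9a, a receptor of cross-presenting dendritic cells, fell (adjusted p = 0.0224 and 0.0307). Both calls rested on single libraries, that of Cd24a being lost without sham replicate 1 or 4 or rUUO replicate 1 or 6 and that of Clec9a without any 1 library but sham replicate 3. The haemoglobin gene Hba-a1 fell from 14.3 ± 7.97 to 1.45 ± 1.26 FPKM (adjusted p = 0.0202), lost without any one of sham replicates 1, 2 and 4 and rUUO replicates 1 and 4. The T and NK, stromal, injured tubule, distal tubule and proximal tubule sums each reached the smallest exact permutation p of 0.0286 (two-sided, adjusted p = 0.0629 over 11 lists). The part of such cells or of their RNA in the macrophage results was not tested.

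The UUO macrophages gave the values during obstruction. Against the same 4 sham samples, 665 of 13332 genes passed in UUO (4.99%), 381 higher and 284 lower, and 710 without UUO replicate 2. Because both comparisons use those sham samples, only the values of single genes are set side by side here. For Mmp13 the log2 change from sham was -3.67 in UUO and -4.25 in rUUO, for Il1rn 3.28 and 4.40, for Trem2 1.91 and 2.19, and for Ccl8 2.93 and 3.61. Ccr2 had a log2 change of 1.61 in UUO and 0.81 in rUUO, and Npc1 one of -0.03 and 0.98. The direct comparison of rUUO with UUO gave 0 calls in limma (0% of 13332), with 945 genes at an unadjusted p under 0.05 and a lowest adjusted p of 0.056. Without UUO replicate 2, 13 genes passed that comparison. In Il1a, which is 3.79, 1.05, 3.64 and 1.34 FPKM in UUO and 12.1, 7.21 and 9.04 FPKM in rUUO, every rUUO sample was above every UUO sample, but the difference of 1.67 did not pass (adjusted p = 0.285). Rgs1, a regulator of G protein signalling in leukocytes, was at 22.6, 17.1, 27.2 and 20.97 FPKM in sham, 80.2, 85.3, 86.7 and 75.3 FPKM in UUO and 134, 209 and 171 FPKM in rUUO, and its rUUO minus UUO difference of 1.04 did not pass either (adjusted p = 0.127), while it rose against sham by 2.90 ± 0.20 (adjusted p = 5.57e-06).

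Whether a change differed from that of the other cells was tested as the macrophage change from sham to rUUO minus the mean change of PT, endothelial and stromal cells, in 1 limma fit over 44 samples. The 44 samples were treated as independent in it, although replicate numbers recur across the populations of a surgery and the labels name no animal. With number and surgery as a replicate block, 780 genes passed, all 704 of the unblocked fit among them. Of the 252 genes higher in macrophages 99 passed that test, and of the 207 lower genes 115 did, against 704 of all 13332 genes (5.28%). The same macrophage samples chose those 252 and 207 genes, so their counts are a description and no independent support. The largest positive differences among the genes described were those of Il1rn (3.58, adjusted p = 0.0019), Ccl8 (3.33, adjusted p = 2.94e-05) and Trbc2 (3.29, adjusted p = 0.00696). Trem2 (2.16, adjusted p = 1.66e-06), Ctsd (1.84, adjusted p = 1.05e-06) and Mertk (2.13, adjusted p = 6.36e-07) passed as well. The most negative were Hs3st1 (-5.17, adjusted p = 1.7e-07), whose log2 change was 0.27 in PT, 1.26 in endothelial and 1.98 in stromal cells, and Mmp13 (-4.27, adjusted p = 7.06e-08). MHC class II genes passed in 9 of 16 cases, and their median log2 change was -0.54 in macrophages, 0.97 in PT cells, 0.22 in endothelial cells and 0.08 in stromal cells. Their levels there were far lower, as in Cd74, with means of 22423 FPKM in sham and 14161 FPKM in rUUO macrophages and between 71.4 and 151 FPKM in the others.

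**Figure D5:**
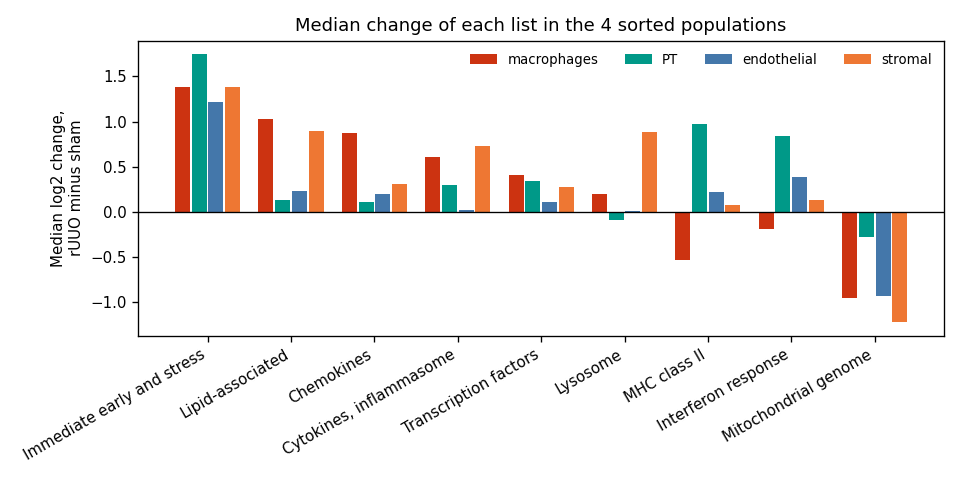
Median log2 change, rUUO minus sham on the log2(FPKM + 1) scale (vertical axis), of 9 gene lists in macrophages, PT, endothelial and stromal cells (bars, 4 per list). The immediate early list is above 1 in all 4 populations, whereas the MHC class II list is at -0.54 in macrophages and above 0 in the other 3.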

How the data were processed

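RNA of sorted F4/80+ macrophages, LTL+ PT cells, CD31+ endothelial cells and PDGFRB+ stromal cells was amplified as cDNA and sequenced in paired reads of 150 bases. The deposited table holds FPKM per gene, which the authors made from their reads. The submitters' processing notes name FastQC, Bowtie2, RSEM, DESeq2 and the genome build mm10, with no role, version or annotation. The table holds 46 value columns and 53465 genes. Of the columns, 2 share a name and match no single sample, and were not used. The PT column named LTL+ SHAM UUO 2 was taken as UUO by the treatment label of its sample. No column was matched to LTL+ Sham 3. The PT values thus rest on 10 samples, 3 of them sham and 3 rUUO. With FPKM alone the depth of each library is unknown, and an FPKM is relative to all other RNA in its sample, so a few abundant transcripts can shift the rest. Amplification before sequencing means that FPKM differences cover amplification as well as biology.

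FPKM values were tested as log2(FPKM + 1) with limma 3.58.1 in R 4.3.3 (trended empirical Bayes), over genes that averaged 1 FPKM or more in the 11 macrophage samples (4 sham, 4 UUO, 3 rUUO, sharing 1 estimate of the spread), adjusted by the Benjamini-Hochberg method and called under 0.05. The pseudocount of 1 understates the change of low genes. Sums of FPKM over other-cell lists were compared by a two-sided exact permutation test in numpy 2.4.6 (Python 3.11.15). The fits were tested on simulated data first. For rUUO against sham in macrophages, they recovered 15% of genes changed by a log2 of 1 and 71% of those changed by 2. A gene that did not pass is therefore not shown to be unchanged. Differences between populations came from 1 limma fit over 44 samples taken as independent. Same-numbered samples of different populations within a surgery had a median deviation correlation of 0.0113 (57 pairs, 2 above 0.1), and the consensus correlation of the block was 0.0353. Same-numbered macrophage samples of different groups did not deviate together (Pearson's r of -0.04 to 0.07 in 8 pairs, 0 of them above 0.1), so no pairing entered the test.

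The comparison, the gene lists and the choice of genes to describe were made with earlier results of these data known. The genes described are the 3 markers, the 6 largest rises and falls among called genes without overlap and without predicted or clone names, the 12 largest of each among genes highest in macrophages, and of each of 32 lists up to 4 called genes with the largest change or, where none was called, the 2 most abundant. A few items are not reported here. Alternatives were another pseudocount, no filter, a filter on the 7 samples, rescaling to equal sums, quantile normalization, rescaling without mitochondrial genes, subtraction of the estimated tubule amount, the 7 samples alone, a replicate block, no trend, a fold minimum, and leaving out each library. The alternative without UUO replicate 2 was chosen after seeing the data. Symbols on more than 1 line of the table (224) were kept apart by gene identifier. Promoter windows came from RefSeq (GRCm38.p6).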

Additional observations from a re-analysis of the deposited data

Results flagged for a closer look

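For 63 of the genes described, the change from sham to rUUO in macrophages differed from the mean change of PT, endothelial and stromal cells in limma's test of the difference (adjusted p under 0.05). Each value below is that difference on the log2(FPKM + 1) scale, positive where macrophages changed upward relative to the others. Cytokine, chemokine and signalling genes had differences of Il1rn 3.58, Il1a 3.07, Osm 2.81, Ptgs2 2.53, Rgs1 2.93, Ccl8 3.33, Ccl7 2.00, Ccl17 2.40, Ccrl2 2.61 and Ccr2 0.83. For genes of lipid handling, the lysosome and iron the values were Trem2 2.16, Fabp5 2.70, Gpnmb 2.05, Ctsd 1.84, Ctsl 0.83, Lamp1 0.67, Acp5 2.58, Hmox1 1.30 and Fth1 1.14. Receptors, complement and proteases gave Itgam 1.75, Mertk 2.13, Mrc1 2.14, Cd300lf 2.41, Clec4n 2.22, Tlr8 1.33, Cfp 1.30, Mmp14 1.49 and Adam8 2.63, and transcription factors Nr4a3 2.57, Nfil3 2.47, Bhlhe40 1.07, Id2 2.41 and Id3 1.5. The T cell genes stood at Trbc2 3.29, Cd3e 2.42 and Il7r 1.73.

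Negative differences among genes highest in macrophages were Mmp13 -4.27, Slc6a12 -2.98, Smpdl3b -2.79, Slc2a3 -1.78, Ptchd1 -2.08, Prss30 -2.09, Il18r1 -2.53, Il18rap -2.27, Btbd11 -1.53 and Adrb1 -1.75. Antigen presentation, interferon and surface genes gave H2-Oa -2.31, H2-Ob -1.98, H2-T23 -1.09, Ifitm3 -0.77, Cd81 -0.76, Fcgr4 -1.05, Tlr9 -0.81 and Clec9a -1.25. Genes that are higher in another population had differences of Hs3st1 -5.17, Adgrl3 -2.25, Gsta2 -1.86, Spink1 -2.64, Akr1c21 -1.93, Keg1 -1.69, Fxyd2 -1.65, Cldn10 -1.52 and Vcam1 -1.26. Among these, Vcam1 rose in macrophages, so its negative value says only that it had a larger mean change elsewhere. Ifitm3 hardly changed in macrophages (log2 change -0.04), so its negative value too comes from the other populations. Mrc1 rose in macrophages by far less than its difference of 2.14 (log2 change 0.61 after the tubule subtraction), so most of that difference lay elsewhere.

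In 10 of 110 genes 1 of the 4 sham samples lay far from the other 3 by Dixon's ratio of gap to range on log2(FPKM + 1), above its 95% critical value for 4 samples, a test that chance passes in about 1 of 20 groups. Sham replicate 1 stood apart in Trbc2 (1.000), Hmox1 (0.851), Krt19 (0.914) and Cd3e (0.875). Sham replicate 2 stood apart in Cd81 (0.884) and Ccl7 (0.847). Sham replicate 3 stood apart in Adgre1 (0.836). Sham replicate 4 stood apart in Smpdl3b (0.848), Hist1h2bk (1.000) and Fth1 (0.881). In Trbc2 and Hist1h2bk the other 3 sham samples were at 0, which fixes the ratio at 1 for any value above 0. Krt19 (1.24 FPKM) and Cd3e (0.72 FPKM) stood apart from values of at most 0.14 and 0.07 FPKM, near the floor.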

How the results depend on the processing

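The 459 genes called became 303 with no filter on low values and 115 under the replicate block, in which rUUO replicate 6 has a number of its own and so no partner. The higher genes were 75 under the block, and the lower genes 133 with no filter, 120 after the estimated tubule amount was taken off and 40 under the block. Of the genes called, 263 with no filter and 108 under the block were among the 459. Numbers did not pair the samples, so calls lost under the block are not read as a weaker effect. Leaving out 1 library gave 204 to 636 genes, 125 to 335 higher and 79 to 301 lower. After the tubule subtraction 65.4% of calls were higher, against 54.9%.

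MHC class II calls numbered 1 with no filter, 6 under quantile normalization (median -0.23), 5 when rescaled without mitochondrial genes, 7 in the 7 samples alone and 1 to 11 without 1 library. Chemokine calls were 6 with no filter, 5 under the replicate block and 6 to 11 without 1 library, with a median of 1.30 at a pseudocount of 0.1. Transcription factor calls were 3 under the block and 5 to 11 without 1 library. Immediate early genes gave 8 to 15 calls and medians of 1.14 to 1.498 without 1 library, and the lipid list medians of 0.98 to 1.22. The proximal tubule median was -2.48 at a pseudocount of 0.1, -2.02 after rescaling to equal sums, -0.30 after the tubule subtraction and -2.06 to -1.72 without 1 library, with 0 calls after the subtraction, by construction, and 10 under the block.

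Log2 changes that reversed were Adgre1 (-0.0364, quantile normalization), Ifitm3 (0.11, quantile normalization, and -0.14 to 0.0163 without 1 library), Atp5b (-0.0433, replicate block) and Slc34a1 (0.40, tubule subtraction). The difference from the other populations reversed for Fosb (-0.14 at a pseudocount of 0.1, -0.0376 after rescaling to equal sums, -0.21 to 0.18 without 1 library), Krt19 (0.16 at a pseudocount of 0.1, -0.70 to 0.23 without 1 library), Adgre1 (0.0134 under quantile normalization, -0.11 to 0.0242 without 1 library), Cd24a (-0.0674 to 0.39 without 1 library), mt-Co3 (0.45 under quantile normalization, 0.0227 when rescaled without mitochondrial genes, -0.20 to 0.0471 without 1 library), mt-Nd2 (0.0151) and mt-Co2 (0.18), the last 2 under quantile normalization. Apart from the construction and the smaller numbers of samples or genes named here, the cause was not tested. Of the single log2 changes under all alternatives, 1694 kept direction and call and 404 lost the call. With FPKM and 3 rUUO samples, differences in genes near 1 FPKM were hardly measurable.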
